A study of Rattus norvegicus with 12 samples.

Results

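The semaphorin, plexin, ephrin and Eph genes of rat PAC1 smooth muscle cells were taken from the count table by their symbols, as Sema, Plxn, Efna, Efnb, Epha or Ephb followed by the number and letter of the member. The rule found 51 of the 33294 genes in the table. They comprised 7 secreted semaphorins (Sema3 genes), 13 semaphorins that stay on the membrane (Sema4 to Sema7 genes), 9 plexins, 8 ephrins and 14 Eph receptors. The rule uses symbols and no measured value, although it was set with earlier results of these data known.

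PAC1 is an established line of pulmonary artery smooth muscle cells, and 12 poly(A) RNA libraries of it fell into 4 groups of 3. D1 was PAC1-D, cells kept more differentiated by splitting once a week at 1:10, with control siRNA. P was PAC1-P, cells kept more proliferative by splitting at 1:20 and 2 times a week, also with control siRNA. RBPMS KD1 was PAC1-D with an siRNA against Rbpms, a splicing regulator of smooth muscle, and MBNL KD was PAC1-D with siRNAs against Mbnl1 and Mbnl2, muscleblind-like splicing regulators. All wells received 90 pmol of siRNA in 2 transfections. The labels place the second transfection at 24 h and the harvest 48 h after it, whereas the study's methods give later times for both. Each target was reached with 1 siRNA, so that effects of the target and of that siRNA's sequence cannot be told apart. The comparisons ask which members differ between the culture states and which respond to loss of either regulator.

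The control siRNA (C2) and the siRNAs that define the knockdowns had these sense strands, shown because they are the treatment itself.
C2: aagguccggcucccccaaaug
RBPMS: ggcggcaaagccgagaaggcgaaca
MBNL1 THH2: cacggaauguaaauuugcauu
MBNL2: gaagaguaauugccugcuuuu

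Semaphorins are guidance cues that act through plexins, and most secreted ones need a neuropilin beside the plexin to bind. Ephrins are cell-surface ligands of the Eph receptor tyrosine kinases and signal when cells touch, in both directions, with A-type ephrins held by a lipid anchor and B-type ephrins by a transmembrane segment. Both systems steer axons and also pattern blood vessels. In vascular smooth muscle they are known for their effects on spreading, migration, adhesion and the cytoskeleton.

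Calls rest on edgeR's quasi-likelihood F test of the raw counts, with 0.05 as the limit for the adjusted p and 1 as the limit for the size of the log2 fold change, and "rose" and "fell" are used here for called genes only. Total counts per library lay between 80842635 and 90771289, so that 3 counts, taken as the limit of detection for counting error alone, equalled 0.033 to 0.037 CPM. Of the values of 1 to 20 counts, 67.3% to 70.3% per library were even, and the totals lay above the read depth to which the study's methods subsampled every sample. Both mates of a read pair may therefore often have been counted, in which case 3 fragments are 6 counts and this limit doubles. The common biological coefficient of variation was 2.88% to 3.24% in the comparisons with D1. The study's methods call its replicates independent and biological, while the labels do not say how the cultures were set up. The siRNA targets fell as labelled, by a log2 fold change of -2.0 for Rbpms in RBPMS KD1 and of -2.07 for Mbnl1 and -1.75 for Mbnl2 in MBNL KD, and Rbpms also fell in P (-3.99). MBNL KD replicate 3 stood apart, with the lowest total and a chi-square per degree of freedom of 12.8 against its fellow replicates, compared with 3.68 between those. The 8 smooth muscle markers summed to 871742 to 916188 scaled counts in D1, 18688 to 19856 in P, 434073 to 449797 in RBPMS KD1 and 694097 to 704524 in MBNL KD, so that P held the fewest smooth muscle transcripts. Most of the D1 sum was Acta2 and Tagln, with means of 447572 and 288424. In MBNL KD none of the 8 was called, with 2 higher (Myh11 0.54, Cnn1 0.12) and 6 lower at an edgeR adjusted p under 0.05. In bulk RNA, fewer cells that express a gene and less of its RNA per cell cannot be told apart.

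In P against D1, 29 of the 44 members tested were called, 16 higher and 13 lower, which is 65.9% beside a background of 27.6% of all genes tested (16.4% higher and 11.2% lower). Under quantile normalization the split was 11 higher and 15 lower, while that of all genes tested went from 2758 higher and 1883 lower to 2256 higher and 2672 lower. In RBPMS KD1 against D1, 1 member rose and 5 fell of 43 tested, 14% beside a background of 4.68% (3.06% higher and 1.62% lower). In MBNL KD against D1, 5 rose and 8 fell of 44 tested, 29.5% beside a background of 10.2% (6.1% higher and 4.14% lower). Without regard to fold, an edgeR adjusted p under 0.05 was reached by 42 members in P, 28 in RBPMS KD1 and 35 in MBNL KD, while 77.9%, 59.1% and 67.5% of all genes tested did. The median absolute log2 fold change of the members was 1.34 in P, 0.36 in RBPMS KD1 and 0.65 in MBNL KD, while the signed medians were -0.12, 0.0055 and -0.072 against 0.020, 0.0043 and 0.0099 over all genes tested. Of the 51 members, 33 were called in at least 1 comparison with D1. Among these, 21 were called in 1 comparison, 9 in 2, and Plxnb1, Epha8 and Epha10 in all 3. The 3 comparisons share the D1 libraries, so a high or low D1 value moves all of them together.

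**Figure D1:**
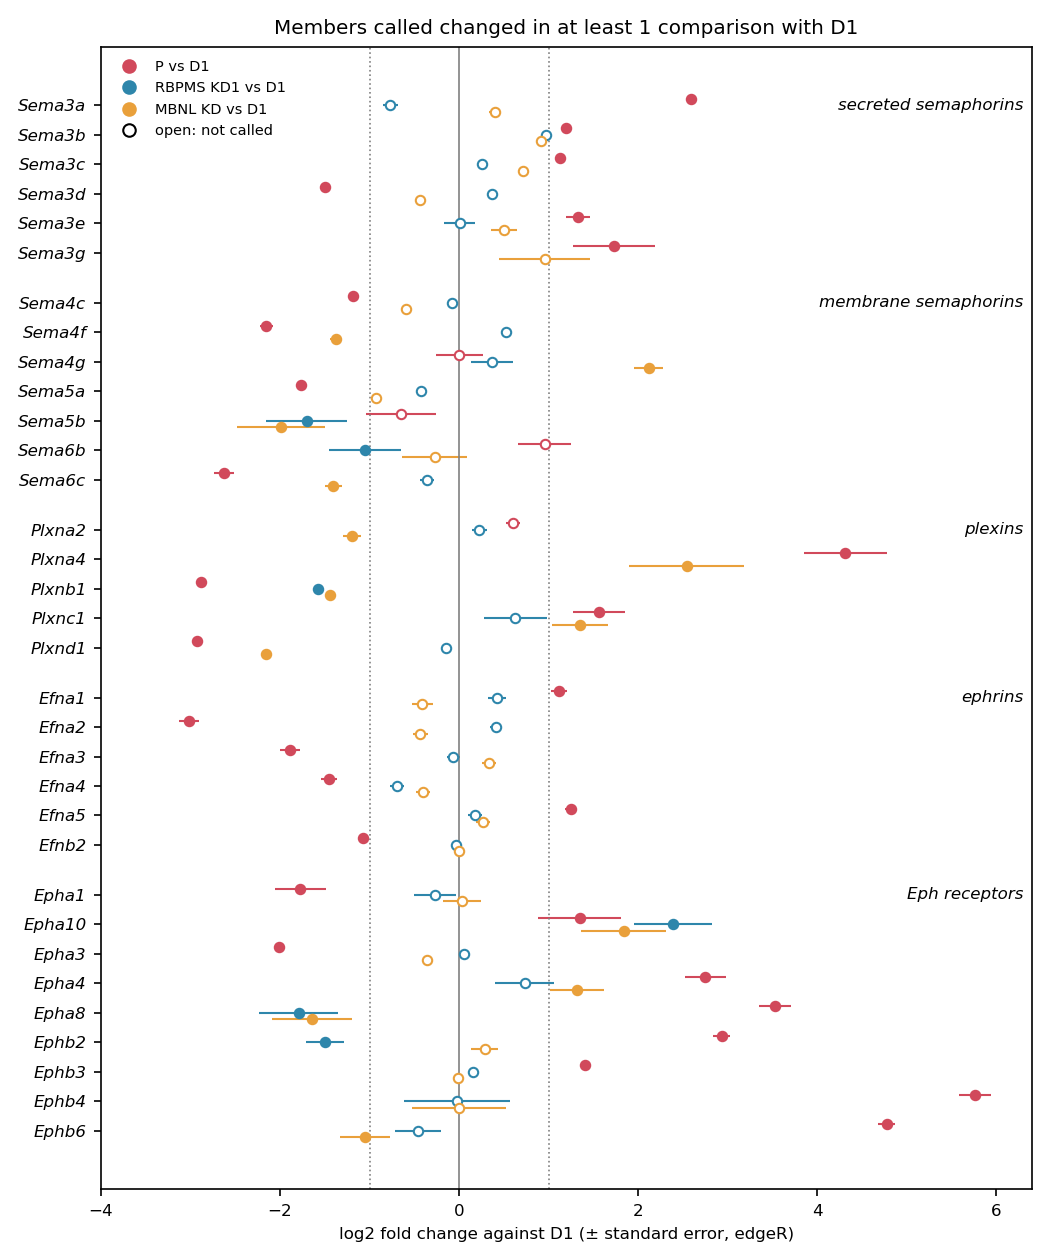
Log2 fold change against D1 (x axis, edgeR, ± standard error) of the 33 members called in at least 1 comparison, grouped by role, with P in red, RBPMS KD1 in blue and MBNL KD in orange. Filled points were called and open points were not, dotted lines mark a log2 fold change of 1 in either direction, and the values run from -3.01 (Efna2) to 5.76 (Ephb4), both in P.

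Among the secreted semaphorins, 5 rose and 1 fell of 7 tested in P, 85.7% beside the 27.6% of all genes. None was called in either knockdown by edgeR or by DESeq2, although 6 of 7 tested in MBNL KD and 5 of 6 in RBPMS KD1 had both an adjusted and an unadjusted edgeR p under 0.05, which 67.5% and 59.1% of all genes reached after adjustment. Sema3a, the founding repulsive semaphorin, which signals through Nrp1 and A-type plexins, had 552, 573 and 602 counts in D1 and 3829, 3736 and 3734 in P. Its counts were 308, 356 and 365 in RBPMS KD1 and 804, 791 and 680 in MBNL KD. Sema3a therefore lay above D1 in every P and MBNL KD library and below it in every RBPMS KD1 library, with a rise of 6.03-fold in P (log2 fold change 2.59 ± 0.049 (SE), edgeR adjusted p = 8.7e-31). The log2 fold changes of the knockdowns, -0.77 ± 0.085 in RBPMS KD1 and 0.40 ± 0.070 in MBNL KD, lay within the fold threshold.

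Sema3b had 2220, 2443 and 2451 counts in D1, 5893, 5961 and 5815 in P, 4742, 4772 and 4592 in RBPMS KD1, and 4651, 4862 and 3866 in MBNL KD. It rose 2.29-fold in P, and was at 195% of D1 in RBPMS KD1 and 187% in MBNL KD, just under the fold threshold with edgeR adjusted p of 5.9e-18 and 2.6e-17. Its gene overlaps a long non-coding RNA with at most 196 counts, whose reads cannot be told apart from its own where counting ignores strand. Sema3c, which is needed for the cardiac outflow tract, had 12620, 12048 and 12172 counts in D1, 29247, 28671 and 29166 in P, 14438, 14996 and 15030 in RBPMS KD1, and 20868, 21241 and 18271 in MBNL KD. All libraries of the other groups lay above D1, P by 2.18-fold (1.12 ± 0.025), and the knockdowns at 119% and 163% of D1 were not called.

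Sema3e, a ligand that binds Plxnd1 without a neuropilin, had 140, 130 and 108 counts in D1, 384, 334 and 312 in P, 158, 113 and 114 in RBPMS KD1, and 197, 178 and 159 in MBNL KD. Sema3g had 6, 6 and 10 counts in D1, 34, 32 and 14 in P, 4, 4 and 12 in RBPMS KD1, and 12, 19 and 12 in MBNL KD. The rises of Sema3e (1.33 ± 0.13) and Sema3g (1.73 ± 0.46) in P were the smallest in counts of this group and were not called under quantile normalization, at 0.88 and 0.86. Sema3d was the secreted member that fell in P, with 7808, 8262 and 7933 counts in D1, 3145, 3112 and 2974 in P, 10319, 10480 and 10510 in RBPMS KD1, and 6255, 6066 and 5337 in MBNL KD. Its log2 fold change was -1.50 ± 0.034 in P, 0.36 in RBPMS KD1 and -0.44 in MBNL KD, and the groups did not overlap. Sema3f, an Nrp2 ligand with the most counts of this role in D1, had 22382, 23913 and 22380 counts there, 12566, 12876 and 12715 in P, 27436, 29534 and 28156 in RBPMS KD1, and 13748, 13881 and 12326 in MBNL KD. At -0.97 in P and -0.78 in MBNL KD it stayed just within the fold threshold.

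The RefSeq gene table, whose assembly (GRCr8) is not the one used for counting, placed Sema3a and Sema3d with 0 protein-coding genes between them, Sema3b and Sema3f with 3, and Sema3c and Sema3e with 4. In P, 1 gene was higher and the other lower in the first pair and in the second, whereas both genes of the third pair rose.

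The membrane semaphorins had no member called higher in P, where 4 of 11 tested fell, 36.4% beside the 27.6% of all genes. In RBPMS KD1, 2 of 11 fell, 18.2% beside 4.68%, and in MBNL KD 3 fell and 1 rose of 11, 36.4% beside 10.2%. Sema4f had 1611, 1625 and 1769 counts in D1, 375, 368 and 478 in P, 2458, 2447 and 2407 in RBPMS KD1, and 635, 756 and 544 in MBNL KD. It fell to 22.5% of D1 in P (-2.15 ± 0.074) and 38.4% in MBNL KD (-1.37 ± 0.068), and was at 144% in RBPMS KD1. Sema6c, of a class that binds A-type plexins, had 622, 631 and 602 counts in D1, 100, 128 and 98 in P, 448, 548 and 472 in RBPMS KD1, and 212, 263 and 224 in MBNL KD. All 3 groups lay below D1, at 16.2% in P, 37.6% in MBNL KD and, not called, 77.9% in RBPMS KD1.

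Sema5a, whose extracellular part carries thrombospondin repeats, had 6335, 6644 and 6256 counts in D1, 1992, 2084 and 2051 in P, 4805, 4881 and 4823 in RBPMS KD1, and 3482, 3449 and 3141 in MBNL KD. It fell in P (-1.77 ± 0.037), and the log2 fold change of -0.93 ± 0.033 in MBNL KD was just under the fold threshold. Sema4c had 2883, 2837 and 2844 counts in D1, 1342, 1404 and 1349 in P, 2826, 2647 and 2740 in RBPMS KD1, and 1943, 2026 and 1694 in MBNL KD. It fell in P (-1.18 ± 0.044), was lower without being called in MBNL KD (-0.60) and differed little from D1 in RBPMS KD1 (-0.08, edgeR adjusted p = 0.075).

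Sema4g was the membrane semaphorin that rose in MBNL KD. It had 49, 51 and 52 counts in D1, 36, 62 and 67 in P, 57, 71 and 71 in RBPMS KD1, and 215, 221 and 224 in MBNL KD. The MBNL KD libraries were 4.35-fold above D1 (2.12 ± 0.16, edgeR adjusted p = 1.1e-12), whereas the P libraries overlapped D1. Sema5b and Sema6b were at low counts throughout. Sema5b had 18, 20 and 43 counts in D1, 14, 18 and 24 in P, 9, 10 and 6 in RBPMS KD1, and 7, 4 and 9 in MBNL KD. It fell in both knockdowns (-1.70 ± 0.45 and -1.99 ± 0.49), and the RBPMS KD1 call was lost without D1 replicate 3, its highest library (-1.20, edgeR adjusted p = 0.053). Sema6b had 26, 24 and 30 counts in D1, 61, 68 and 40 in P, 9, 10 and 20 in RBPMS KD1, and 32, 14 and 20 in MBNL KD. Its fall in RBPMS KD1 (-1.05 ± 0.40, edgeR adjusted p = 0.025) was lost without D1 replicate 1 (-1.07) or 3 (-0.96), and without RBPMS KD1 replicate 1 (-0.85) or 2 (-0.90).

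Sema4b, with the most counts of the membrane semaphorins in D1, was not called against D1. It had 9356, 9180 and 9194 counts in D1, 10603, 11380 and 11200 in P, 11857, 12509 and 12557 in RBPMS KD1, and 5178, 5252 and 4495 in MBNL KD. MBNL KD lay at 53.6% of D1 (-0.89) and RBPMS KD1 at 131% (0.39).

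The plexins, the receptors of semaphorins, had 2 rises and 2 falls of 8 tested in P, 1 fall of 7 in RBPMS KD1, and 2 rises and 3 falls of 8 in MBNL KD. These shares of 50.0%, 14.3% and 62.5% stand beside 27.6%, 4.68% and 10.2% of all genes. Plxnb1, the receptor of Sema4d, which couples to RhoA through exchange factors, fell in all 3 comparisons. It had 5664, 5819 and 5324 counts in D1, 820, 863 and 792 in P, 1964, 1923 and 1833 in RBPMS KD1, and 2204, 2080 and 1883 in MBNL KD. These were 13.6%, 33.5% and 36.6% of D1, with log2 fold changes of -2.88 ± 0.046, -1.58 ± 0.041 and -1.44 ± 0.039. Among the members, Plxnb1 was the one called lower in all 3 comparisons.

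Plxnd1, the receptor of Sema3e and a gene needed for vessel patterning, had 21016, 22080 and 21192 counts in D1, 3069, 3127 and 2998 in P, 19226, 19944 and 19637 in RBPMS KD1, and 4950, 4912 and 4504 in MBNL KD. It fell to 13.2% of D1 in P (-2.92 ± 0.031) and 22.3% in MBNL KD (-2.16 ± 0.026), but stayed at 90.0% in RBPMS KD1 (-0.15, edgeR adjusted p = 2.3e-05). Its ligand gene Sema3e was higher in P, as given above. Plxna2 had 506, 448 and 456 counts in D1, 747, 775 and 797 in P, 584, 506 and 585 in RBPMS KD1, and 222, 198 and 195 in MBNL KD. This A-type plexin fell in MBNL KD (-1.19 ± 0.10), while its value in P lay on the other side of D1 (0.60) without being called.

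The plexins that rose were at low counts. Plxna4 had 2, 8 and 0 counts in D1, 66, 80 and 77 in P, 12, 18 and 9 in RBPMS KD1, and 12, 30 and 18 in MBNL KD. Its fitted log2 fold changes of 4.31 ± 0.46 in P and 2.54 ± 0.64 in MBNL KD rest on D1 libraries near the detection limit, and it was not tested in RBPMS KD1. Across the alternatives run, they were 1.27 to 5.94 in P and 0.50 to 4.16 in MBNL KD. Plxnc1, a receptor of Sema7a, had 23, 21 and 17 counts in D1, 59, 64 and 73 in P, 20, 34 and 42 in RBPMS KD1, and 63, 42 and 51 in MBNL KD. It rose in P (1.56 ± 0.29) and MBNL KD (1.35 ± 0.32), and the RBPMS KD1 libraries overlapped D1. In P it was not past the fold threshold under quantile normalization (0.99) or in limma on the authors' normalised values (0.53), and in MBNL KD it was not called in that limma fit (0.56) or in the test against a fold change of 2 (adjusted p = 0.605). Plxnb2 had the most counts of the plexins in D1, at 46032, 46684 and 46384, and had 42525, 42852 and 42216 in P, 49161, 48948 and 48406 in RBPMS KD1, and 36016, 35388 and 31957 in MBNL KD. It differed least from D1 among the plexins tested in P (-0.24), and MBNL KD was lower in every library (-0.43).

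Promoters are printed for Plxnb1 and Plxnd1, the plexins with large falls, and further on for Ephb4 and Ephb6, the members with the largest rises. They are the 250 bases before the RefSeq start site in GRCr8, which is another assembly than that of the counts (mRatBN7.2). Capitals mark GC boxes, GGGCGG or on the other strand CCGCCC, and boxes that overlap run together.
Plxnb1 (chr8:118622911-118623160, plus strand): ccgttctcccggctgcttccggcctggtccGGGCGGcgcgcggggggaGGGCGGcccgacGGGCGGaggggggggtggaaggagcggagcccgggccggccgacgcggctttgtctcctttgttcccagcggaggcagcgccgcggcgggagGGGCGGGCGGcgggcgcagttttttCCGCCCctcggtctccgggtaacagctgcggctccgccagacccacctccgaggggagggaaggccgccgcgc
Plxnd1 (chr4:150715188-150715437, minus strand): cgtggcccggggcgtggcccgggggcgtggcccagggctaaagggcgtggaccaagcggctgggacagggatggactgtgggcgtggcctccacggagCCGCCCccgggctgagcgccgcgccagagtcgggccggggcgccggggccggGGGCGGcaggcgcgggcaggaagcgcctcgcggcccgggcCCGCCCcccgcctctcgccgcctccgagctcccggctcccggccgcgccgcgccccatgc
The Plxnb1 window held 36 CpG and 6 GC boxes, and the Plxnd1 window 37 CpG and 3 GC boxes. Of the 51 members, 41 had a promoter in the table, with a median of 14 CpG and 61.2% GC, compared with 8 CpG and 54.0% over 21851 protein-coding promoters. A GC box was present in 23 member promoters (56.1%) and in 38.9% of protein-coding promoters. An E-box (CANNTG, which reads alike on both strands) was present in 24 (58.5%, against 63.3%), a CArG box on either strand in 1, that of Sema3c (2.44%, against 1.52%), and TATAAA on either strand in 0 (against 12.1%). These matches describe the letters of the windows and are not evidence of binding.

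**Figure D2:**
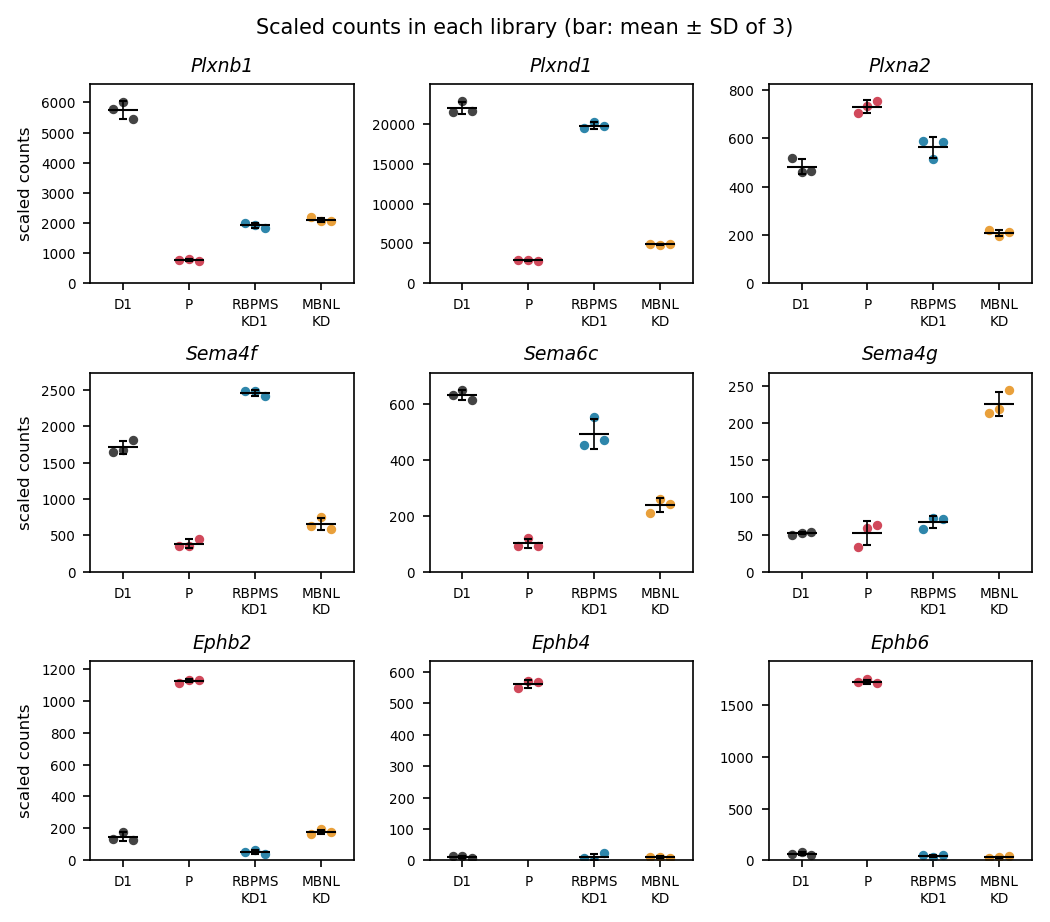
Scaled counts (y axis, linear, TMM) of 9 members in each of the 12 libraries by group, with 1 point per library and a bar for the mean ± SD of 3. Plxnb1 was lower than D1 in all 3 other groups, Plxnd1, Sema4f and Sema6c were lowest in P and next lowest in MBNL KD, Plxna2 and Sema4g stood apart in MBNL KD, and Ephb2, Ephb4 and Ephb6 stood apart in P.

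Of the ephrins, 2 rose and 4 fell of 7 tested in P, 85.7% beside the 27.6% of all genes. None of 8 in RBPMS KD1 or of 7 in MBNL KD was called by edgeR or DESeq2, although 5 and 6 of them had an adjusted p under 0.05, the same numbers as with an unadjusted p, beside 59.1% and 67.5% of all genes. Efna2 had 713, 643 and 635 counts in D1, 103, 78 and 86 in P, 866, 933 and 889 in RBPMS KD1, and 530, 435 and 502 in MBNL KD. It fell to 12.4% of D1 in P (-3.01 ± 0.11), and the knockdowns lay on opposite sides of D1 (0.41 and -0.43). Efnb2, the B-type ephrin that marks arteries and has the most counts of the ephrins in D1, had 6559, 6760 and 6646 counts in D1, 3435, 3505 and 3369 in P, 6491, 6661 and 6607 in RBPMS KD1, and 6874, 6961 and 6093 in MBNL KD. It fell in P to 47.6% of D1 (-1.07 ± 0.032), and both knockdowns overlapped D1.

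Efna1, Efna3 and Efna4 are adjacent in the RefSeq order, with 0 protein-coding genes between Efna1 and Efna3 and 0 between Efna3 and Efna4. Efna1 had 271, 342 and 357 counts in D1, 749, 778 and 759 in P, 428, 444 and 449 in RBPMS KD1, and 250, 269 and 211 in MBNL KD. Efna3 had 586, 544 and 528 counts in D1, 150, 138 and 197 in P, 528, 543 and 539 in RBPMS KD1, and 754, 752 and 583 in MBNL KD. Efna4 had 662, 708 and 751 counts in D1, 300, 293 and 245 in P, 431, 467 and 435 in RBPMS KD1, and 571, 525 and 505 in MBNL KD. Efna1 rose in P (1.12 ± 0.088) while its neighbours Efna3 (-1.89 ± 0.11) and Efna4 (-1.46 ± 0.089) fell. The Efna1 call was just past the threshold and was lost without D1 replicate 1 (0.998) and under quantile normalization (0.87). In RBPMS KD1, Efna4 was at 61.9% of D1 with all libraries below it, not called. Efna5, a ligand of several A-type Eph receptors, had 481, 508 and 465 counts in D1, 1222, 1277 and 1241 in P, 528, 547 and 599 in RBPMS KD1, and 618, 623 and 504 in MBNL KD. It rose 2.37-fold in P (1.25 ± 0.066) and was at 113% and 119% of D1 in the knockdowns.

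The Eph receptors had 7 rises and 2 falls of 11 tested in P. All B-type members tested there, Ephb2, Ephb3, Ephb4 and Ephb6, were among the rises, and Ephb1 was not tested. The called share was 81.8% beside the 27.6% of all genes, and with 1 rise and 2 falls of 11 in RBPMS KD1 and 2 and 2 of 11 in MBNL KD it was 27.3% beside 4.68% and 36.4% beside 10.2%. Ephb4, the receptor of Efnb2 that marks veins, had 12, 12 and 6 counts in D1, 582, 605 and 599 in P, 6, 2 and 22 in RBPMS KD1, and 12, 12 and 6 in MBNL KD. The rise in P was 54.2-fold (5.76 ± 0.18, edgeR adjusted p = 1.1e-24), and the knockdowns overlapped D1. Across the alternatives run, the log2 fold change in P was 3.54 to 5.91, and D1 replicate 3 lay at the doubled detection limit of 6 counts. The Ephb4 gene overlaps Zan, which had at most 144 counts. Ephb6, a member without kinase activity, had 56, 76 and 52 counts in D1, 1829, 1848 and 1805 in P, 48, 34 and 54 in RBPMS KD1, and 26, 28 and 34 in MBNL KD. It rose 27.4-fold in P (4.78 ± 0.094) and fell in MBNL KD (-1.05 ± 0.28, edgeR adjusted p = 0.0014). That fall was not called without D1 replicate 2 (-0.87), MBNL KD replicate 1 (-0.95) or MBNL KD replicate 2 (-0.997).

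The windows before the start sites of these receptors, in GRCr8 and with GC boxes in capitals, are as follows.
Ephb4 (chr12:24988389-24988638, minus strand): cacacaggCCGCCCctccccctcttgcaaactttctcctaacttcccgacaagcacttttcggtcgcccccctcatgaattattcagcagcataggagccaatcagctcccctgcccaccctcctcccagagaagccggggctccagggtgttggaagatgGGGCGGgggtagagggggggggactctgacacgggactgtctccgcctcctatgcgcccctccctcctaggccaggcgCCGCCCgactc
Ephb6 (chr4:71458382-71458631, plus strand): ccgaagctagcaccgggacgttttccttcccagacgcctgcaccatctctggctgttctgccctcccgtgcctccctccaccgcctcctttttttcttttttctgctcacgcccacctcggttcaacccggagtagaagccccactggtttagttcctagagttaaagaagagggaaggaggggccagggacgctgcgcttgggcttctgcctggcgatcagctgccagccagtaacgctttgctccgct
The Ephb4 window held 12 CpG and 3 GC boxes, and that of Ephb6 held 14 CpG, 0 GC boxes and 1 E-box, so that the genes with the largest rises did not share a GC box.

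Ephb2 had 130, 174 and 126 counts in D1, 1182, 1194 and 1192 in P, 54, 62 and 38 in RBPMS KD1, and 166, 196 and 161 in MBNL KD. This receptor rose 7.64-fold in P (2.93 ± 0.092) and fell to 35.3% of D1 in RBPMS KD1 (-1.50 ± 0.21), and MBNL KD overlapped D1 (0.28, edgeR adjusted p = 0.098). Ephb3 had 1457, 1497 and 1559 counts in D1, 4263, 4338 and 4347 in P, 1698, 1658 and 1747 in RBPMS KD1, and 1473, 1587 and 1400 in MBNL KD. It rose 2.64-fold in P (1.40 ± 0.040) and stayed within 0.16 of D1 on the log2 scale in the knockdowns.

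Epha8 had 32, 22 and 22 counts in D1, 305, 335 and 314 in P, 6, 10 and 6 in RBPMS KD1, and 6, 12 and 6 in MBNL KD. It was the member called in all 3 comparisons with opposite signs, higher in P (3.53 ± 0.18) and lower in RBPMS KD1 (-1.79 ± 0.44) and MBNL KD (-1.65 ± 0.45), the falls at counts of 12 or fewer. Neither fall was called in limma on the authors' normalised values (-0.61 and -0.62) or in the test against a fold change of 2 (adjusted p = 0.689 and 0.355). The normalised values carry an added 35, which makes the folds of low-count genes smaller in limma. The D1 mean of Epha8, 26.0 scaled counts, lay below that value, so its falls could hardly pass the fold threshold there. In the RefSeq order 3 protein-coding genes separate Epha8 from Ephb2, and both rose in P. Epha4, which binds ephrins of both types, had 22, 30 and 16 counts in D1, 166, 180 and 153 in P, 35, 38 and 42 in RBPMS KD1, and 58, 58 and 54 in MBNL KD. It rose in P (2.75 ± 0.23) and MBNL KD (1.32 ± 0.30), and all RBPMS KD1 libraries were above D1 without passing the test (0.73, edgeR adjusted p = 0.058). The MBNL KD call was lost in that limma fit (0.59) and in the test against a fold change of 2 (adjusted p = 0.662).

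Epha10, which also lacks kinase activity, had 11, 2 and 14 counts in D1, 30, 24 and 21 in P, 70, 39 and 36 in RBPMS KD1, and 38, 44 and 16 in MBNL KD. It was called higher in all 3 comparisons (1.35 ± 0.46, 2.39 ± 0.44 and 1.84 ± 0.47) and was the 1 member that rose in RBPMS KD1. The P call was lost without D1 replicate 2 (0.88) or P replicate 1 (1.20, edgeR adjusted p = 0.054), under quantile normalization (0.56) and in the test against a fold change of 2 (adjusted p = 0.343). None of the 3 calls was made in limma on the authors' normalised values (0.29, 0.93 and 0.56), and that of MBNL KD was also lost in the test against a fold change of 2 (adjusted p = 0.202) and had no test with halved counts. Epha3, a receptor of Efna5 with the most counts of the Eph genes in D1, had 5793, 6178 and 5830 counts there, 1543, 1509 and 1725 in P, 6112, 6275 and 6413 in RBPMS KD1, and 4783, 4551 and 4488 in MBNL KD. It fell to 24.8% of D1 in P (-2.02 ± 0.043) while its ligand gene Efna5 rose. Epha1 had 72, 73 and 83 counts in D1, 16, 35 and 21 in P, 87, 42 and 63 in RBPMS KD1, and 58, 85 and 89 in MBNL KD. It fell in P (-1.77 ± 0.29), but its gene overlaps Zyx, which had up to 28946 counts, so that its low counts are uncertain where counting ignores strand.

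Some endothelial markers also differed in P, where Ephb4, an endothelial gene in veins, rose. The 8 genes summed to 67.1 to 72.5 scaled counts in D1, 487 to 605 in P, 162 to 165 in RBPMS KD1 and 82.9 to 127 in MBNL KD. In P, the 3 tested, Cdh5, Tek and Vwf, were called higher. Pecam1, Kdr and Tie1 were not tested and overlapped D1, with means in P of 5.04, 1.89 and 3.78 scaled counts. Cdh5 had 0 counts in D1 and at least a 39.6-fold higher level in P, measured against 3 counts per library (at least 19.8-fold against 6), while Cldn5 and Emcn had 0 counts in all 4 groups. In RBPMS KD1 the 2 tested, Tek and Vwf, were also called higher, while Cdh5 and Kdr had 0 counts. The 5 epithelium markers summed to 3159 to 3315 scaled counts in D1 and 7125 to 7385 in P, with Epcam, Cdh1 and Cldn4 at 0 in D1. Nearly all of that sum was Krt8, with means of 3223 and 7241, the only one of the 5 tested. The part of these genes in the Eph values was not tested. Of the 5 fibroblast markers, all tested, 0 were called in P or RBPMS KD1 by edgeR or DESeq2, although 3 were higher and 1 lower in P and 4 higher and 1 lower in RBPMS KD1 at an adjusted p under 0.05, as many as at an unadjusted p. In MBNL KD, Dcn (-1.24) and Dpt (-2.04) fell, and 4 of the 5 were lower and 1 higher at that adjusted p. The 5 genes summed to 1279430 to 1342870 scaled counts in D1, 1589210 to 1773450 in P, 1779300 to 1896580 in RBPMS KD1 and 1154400 to 1184850 in MBNL KD. Nearly all of that sum was Col1a1, with means of 1290880 in D1, 1659960 in P, 1842490 in RBPMS KD1 and 1156440 in MBNL KD. Lum went the other way in RBPMS KD1 (-0.38) and Pdgfra in P (-0.29), neither of them called. The part of the fibroblast markers in the members' changes against D1 was not tested.

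The calls of several other members were lost in 1 or both of the limma fit on the authors' normalised values and the test against a fold change of 2. The D1 means of Sema5b and Sema6b, 27.6 and 27.3 scaled counts, lay below the added 35. Their falls could therefore hardly pass the fold threshold in limma. In P, the limma fit did not call Sema3e (0.75), Sema3g (0.36) or Efna1 (0.84), and the test against a fold change of 2 did not call Sema3g or Efna1. In RBPMS KD1, neither called Sema5b (-0.59 in limma) or Sema6b (-0.46), and the test against a fold change of 2 did not call Ephb2 (adjusted p = 0.22). In MBNL KD, neither called Sema5b (-0.68), Plxna4 (0.50) or Ephb6 (-0.73), and the test against a fold change of 2 did not call Plxna2 (adjusted p = 0.141).

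Of the 18 members that were not called against D1, 11 were tested in all 3 comparisons and 7 in fewer. Among the 11, Epha2, an A-type receptor, had 3772, 3292 and 3922 counts in D1, 2531, 2667 and 2563 in P, 5722, 5556 and 5485 in RBPMS KD1, and 6255, 6637 and 6040 in MBNL KD. It lay below D1 in P (-0.62) and above it in both knockdowns (0.59 and 0.79), in every library. Sema7a, a lipid-anchored ligand of Plxnc1, had the same arrangement, with -0.60 in P, 0.53 in RBPMS KD1 and 0.80 in MBNL KD. The log2 fold changes of Plxna1, Plxna3, Efnb1, Epha7, Sema4a and Sema6a lay between -0.81 and 0.64 in the 3 comparisons. Epha5 and Plxnb3 had 0 counts in every library, which allows up to 3 counts. Epha6 had 2, 8 and 12 counts in P and 0 elsewhere, and Ephb1, Efnb3, Sema4d and Sema6d had at most 16 counts in any library.

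Whether the knockdowns differ from each other was tested directly, with MBNL KD against RBPMS KD1. Of 42 members tested, 4 were higher and 6 lower in MBNL KD, 23.8% beside a background of 11.9% (5.88% higher and 6.03% lower). An adjusted p under 0.05 without a fold threshold was reached by 31 members and by 69.5% of all genes tested. Plxnd1 (-2.01 ± 0.026), Sema4f (-1.90 ± 0.062), Plxna2 (-1.43 ± 0.098), Sema4b (-1.29), Sema3f (-1.07) and Sema6c (-1.05) were lower in MBNL KD. Ephb2 (1.78 ± 0.19), Sema4g (1.75 ± 0.16), Sema3a (1.16 ± 0.081) and Epha7 (1.15 ± 0.049) were higher. Epha7, an A-type receptor, had 1364, 1216 and 1274 counts in RBPMS KD1 and 2973, 2806 and 2652 in MBNL KD, on either side of 2086, 2169 and 2009 in D1. The difference for Plxnb1 was 0.13 ± 0.047 (edgeR adjusted p = 0.019), which passed the adjusted p but lay far inside the fold threshold, and the Sema3b difference was -0.06. The Sema6c call was lost without MBNL KD replicate 1 (-0.98) or RBPMS KD1 replicate 2 (-0.97), in limma (-0.97) and in the test against a fold change of 2, that of Sema3f in limma (-0.998), and that of Sema3a in the test against a fold change of 2 (adjusted p = 0.109).

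**Figure D3:**
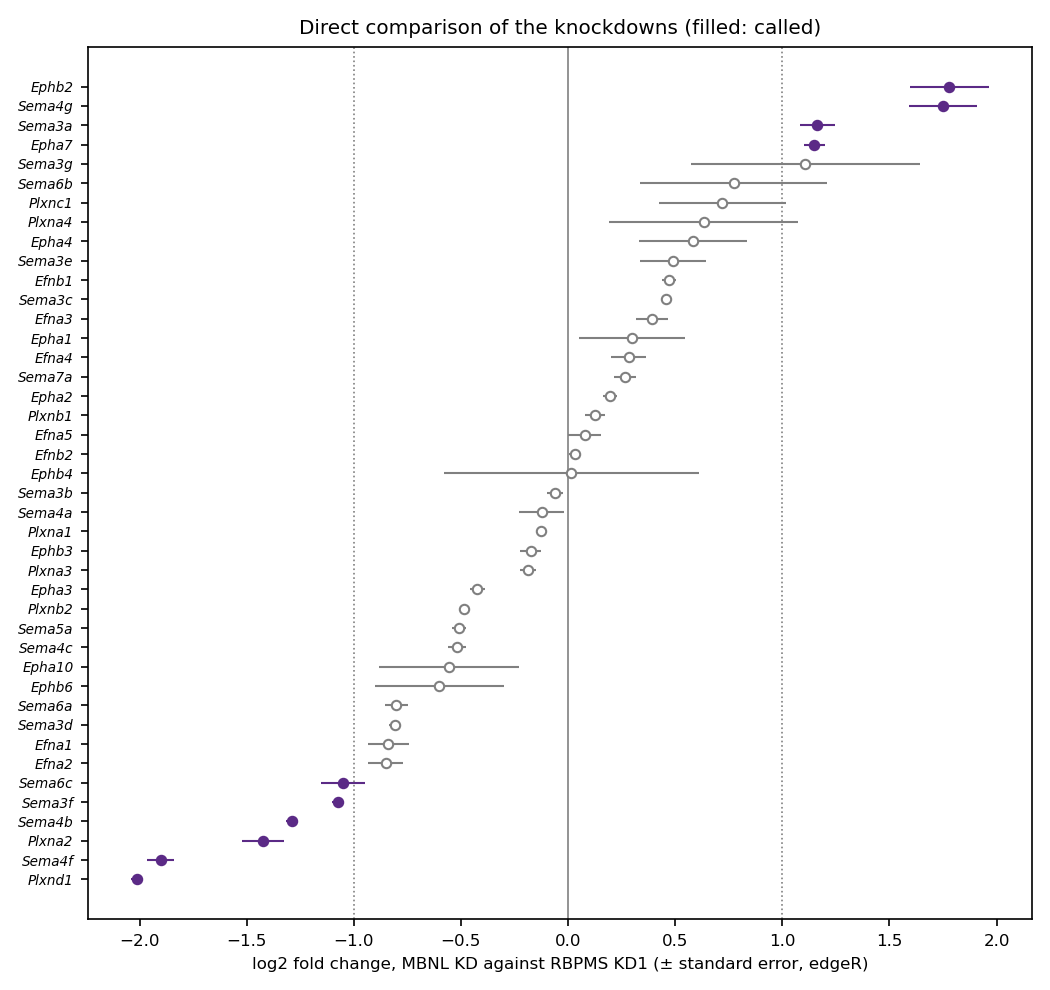
Log2 fold change of MBNL KD against RBPMS KD1 (x axis, edgeR, ± standard error) for the 42 members tested, sorted by value. Filled points are the 10 called members, 4 higher and 6 lower in MBNL KD, with Ephb2 at 1.78 and Plxnd1 at -2.01 as the outermost points.

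The partners of these families were counted in lists of coreceptors, effectors and other guidance genes. Of the semaphorin coreceptors, 3 rose and 3 fell of 8 tested in P, 75.0% beside the 27.6% of all genes. Nrp1, the coreceptor of Sema3a, had 24683, 24754 and 25151 counts in D1, 7451, 7400 and 7317 in P, 20886, 20665 and 21527 in RBPMS KD1, and 12528, 12027 and 11619 in MBNL KD. Nrp2, the coreceptor of Sema3f, had 3455, 2652 and 3321 counts in D1, 24601, 26549 and 26270 in P, 3307, 3119 and 3423 in RBPMS KD1, and 4842, 4504 and 4334 in MBNL KD. The neuropilins thus went opposite ways in P, with Nrp1 lower (-1.87) and Nrp2 higher (2.92), and Nrp1 also fell in MBNL KD (-1.04), although not past the fold threshold under quantile normalization (-0.95) or in limma on the authors' normalised values (-0.94). Sema3a, the Nrp1 ligand, was higher in P and Sema3f, the Nrp2 ligand, lower without being called. Ptk7 had 2, 11 and 2 counts in D1 and 177, 183 and 157 in P, and its fitted log2 fold change of 4.96 rests on D1 counts near the detection limit. Itga1 (-2.63) and L1cam (-2.04) fell in P. In MBNL KD, Nrcam rose (1.99), which with Nrp1 made 2 of 7 tested, 28.6% beside the 10.2% of all genes. In that limma fit, L1cam in P (-0.82) and Nrcam in MBNL KD (0.79) were not called.

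Of the plexin effectors, 4 rose and 8 fell of 21 tested in P, 57.1% beside the 27.6% of all genes. In MBNL KD, 1 rose and 2 fell of 21, 14.3% beside 10.2%. Crmp1, of the family that mediates Sema3a signals to microtubules, had 32, 38 and 40 counts in D1 and 776, 843 and 862 in P (4.37). Its relative Dpysl5 had 0, 6 and 0 counts in D1, 48, 62 and 56 in P, and 28, 21 and 14 in MBNL KD, and was called higher in both from a D1 level near the detection limit. The MBNL KD call of Dpysl5 was lost in limma on the authors' normalised values (0.58). Rnd2 rose in P (2.62), and Mical1 (-2.08) and Rhod (-1.85) fell. In MBNL KD Plxdc1 (-1.79) and Mical2 (-1.07) fell, the latter not under quantile normalization (-0.94) or in limma (-0.95). Mical2 lay nearly as low in RBPMS KD1 (-0.97, not called), and its direct difference between the knockdowns was -0.11. Of the Eph and ephrin effectors, 5 rose and 2 fell of 20 tested in P, 35% beside the 27.6% of all genes, with Ngef (2.07), Vav2 (1.78) and Tiam1 (1.73), exchange factors for small GTPases, higher and Chn2 (-2.51) lower. Arhgef15 was also called higher, with 0, 4 and 4 counts in D1 and 13, 14 and 12 in P, but from a D1 level near the detection limit. That call was lost under quantile normalization (0.41), in limma (0.27) and in the test against a fold change of 2 (adjusted p = 0.060). Adam10, the protease that cleaves ephrins on contact, had 13522, 13747 and 13379 counts in D1 and 3197, 3257 and 2770 in MBNL KD. It fell in MBNL KD (-2.14 ± 0.028) with Chn2 (-1.01), 2 of the 18 tested there, and that share of 11.1% is close to the 10.2% of all genes. Chn2 was not called there under quantile normalization (-0.98), in limma (-0.93), without D1 replicate 3 (-0.99) or without MBNL KD replicate 1 (-0.99).

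**Figure D4:**
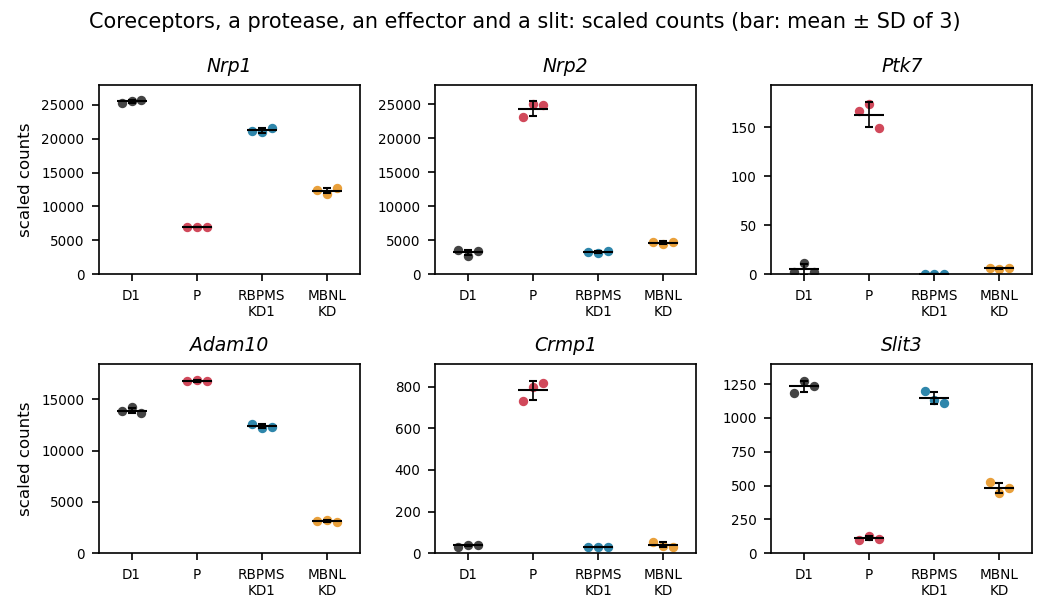
Scaled counts (y axis, linear, TMM) of the coreceptors Nrp1, Nrp2 and Ptk7, the protease Adam10, the effector Crmp1 and the guidance ligand Slit3 in each library by group, with 1 point per library and a bar for the mean ± SD of 3. Nrp2, Ptk7 and Crmp1 were high in P, Nrp1 and Slit3 were lowest in P and next lowest in MBNL KD, and Adam10 was low in MBNL KD.

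Of the other guidance families, 20 of 21 listed genes matched the table, and 3 rose and 2 fell of 13 tested in P, 38.5% beside the 27.6% of all genes. Ntn1, a netrin, had 3, 6 and 6 counts in D1 and 3126, 3620 and 3581 in P, with a fitted log2 fold change of 9.28 that rests on D1 counts near the detection limit. Slit3, a ligand of Robo receptors, had 1162, 1235 and 1211 counts in D1, 107, 135 and 113 in P, 1184, 1117 and 1106 in RBPMS KD1, and 527, 452 and 439 in MBNL KD. Rgma (1.89) and Ntn3 (1.64) rose and Slit3 (-3.46) and Ntn4 (-1.19) fell in P. In MBNL KD, 2 rose and 3 fell of 12, 41.7% beside 10.2%, with Robo2 (1.72) and Unc5c (1.03) higher and Slit3 (-1.34), Ntng2 (-1.33) and Rgma (-1.15) lower. Unc5c was not called under quantile normalization (0.95), in limma on the authors' normalised values (0.84), without D1 replicate 2 (0.99) or without MBNL KD replicate 2 (0.98). In RBPMS KD1, none of these 4 lists held a gene called by edgeR or DESeq2, although Mical2 (-0.97) and Ntn3 (0.93) lay just inside the fold threshold. An adjusted edgeR p under 0.05 was reached there by 2 of 7 coreceptors, 12 of 20 plexin effectors, 12 of 18 Eph and ephrin effectors and 8 of 12 other guidance genes, and an unadjusted p under 0.05 by 3, 12, 13 and 8, while 59.1% of all genes tested reached the adjusted p.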

How the data were processed

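Poly(A) RNA of rat PAC1 cells was sequenced in 12 libraries, grouped by their labels with 3 per group. The authors subsampled reads, aligned them with STAR 2.7.11b to mRatBN7.2 and counted them per RefSeq gene with featureCounts, and the deposited counts are raw. The strand setting and the counting of mates are not given in the sources used here, although the kit named in the labels keeps strand. The authors' deposited normalised signal values were made by noise correction and quantile normalization, start at 35 and hold 19812 genes, 47 of the members among them. They were used for an alternative only, in which the 35, added to every value, makes the folds of low-count genes smaller.

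Each comparison was a fit of the libraries concerned with edgeR 4.0.16 under R 4.3.3 (filterByExpr, TMM, quasi-likelihood F test, Benjamini-Hochberg adjustment over all genes tested). A call needed both an adjusted p below 0.05 and a log2 fold change of more than 1 in size. Standard errors are the log2 fold change over the square root of F. With 3 libraries against 3, an exact permutation test cannot go below p = 0.1, so none was run. Scaled counts are TMM-scaled over the 12 libraries, and counts grow with transcript length, so that levels were not compared between genes.

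Every member was accounted for. Library counts were given for members called against D1 and for the member with the most scaled counts in D1 in each role, and of each partner list at most 5 called genes with the largest absolute log2 fold change were named. Other genes with library counts were chosen after their values were seen. The members and lists were chosen with earlier results of these data known. DESeq2 1.42.0 and limma 3.58.1 served as alternatives, together with other normalizations, filters, halved counts, a replicate block and leaving out each library. The edgeR and DESeq2 procedures were tested on simulated data. Promoter sequences and gene order came from RefSeq (GRCr8), matched by symbol, and siRNA sequences from the study's supplementary tables.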

Additional observations from a re-analysis of the deposited data

Results flagged for a closer look

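The members below were picked out because the effects of the knockdowns differed from each other in the direct edgeR test of MBNL KD against RBPMS KD1. The log2 fold change was -2.01 for Plxnd1, -1.90 for Sema4f, -1.43 for Plxna2, -1.29 for Sema4b, -1.07 for Sema3f and -1.05 for Sema6c, all lower in MBNL KD. It was 1.78 for Ephb2, 1.75 for Sema4g, 1.16 for Sema3a and 1.15 for Epha7, all higher in MBNL KD. The log2 fold changes against D1 had opposite signs in the knockdowns for Sema3a, Sema3f, Sema4b, Sema4f, Epha7, Plxna2 (0.23 in RBPMS KD1) and Ephb2 (0.28 in MBNL KD, not past the adjusted p). Smooth muscle markers also differed between these groups, with 434073 to 449797 scaled counts in RBPMS KD1 and 694097 to 704524 in MBNL KD. All 5 fibroblast markers had an edgeR adjusted p under 0.05 and were lower in MBNL KD, with Dpt (-2.71) and Dcn (-1.95) called, and the list summed to 1779300 to 1896580 scaled counts in RBPMS KD1 and 1154400 to 1184850 in MBNL KD. Nearly all of that sum was Col1a1 (-0.67, not called). Both endothelial markers tested were also lower in MBNL KD, at -0.80 for Tek and -0.73 for Vwf, without being called. The part of these markers in the differences was not tested. Groups of 3 libraries were not tested for outlying samples.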

How the results depend on the processing

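Of the 58 member calls in the 4 comparisons, 35 were made under every alternative that was run, 23 were lost or had no test under at least 1, and none reversed. Without a fold threshold, 21 members were higher and 21 lower in P, 15 higher and 13 lower in RBPMS KD1, 15 higher and 20 lower in MBNL KD, and 14 higher and 17 lower in MBNL KD against RBPMS KD1. In RBPMS KD1, the counts were 2 higher without a filter, 0 higher and 2 lower with at least 10 counts in every library, 0 higher and 2 lower with limma on the normalised values, 2 higher in the single fit of 12 libraries, and 1 lower in the test against a fold change of 2. In MBNL KD, they were 3 higher with at least 10 counts, 1 higher and 5 lower with limma, 3 higher with halved counts, and 1 higher and 4 lower in the test against a fold change of 2. Quantile normalization gave 3 Eph and ephrin effectors higher in P, and in MBNL KD 1 other guidance gene higher, 0 coreceptors lower, 1 plexin effector lower and 1 Eph and ephrin effector lower. It also ended the P calls of Efna1, Sema3e, Sema3g, Plxnc1 (0.99) and Epha10 (0.56). Beyond the fewer genes tested with the stricter filter and halved counts, and the 35 added in the limma values, the cause was not tested.

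Leaving out 1 library gave 15 to 17 members higher and 13 to 14 lower in P, 1 to 2 higher and 3 to 5 lower in RBPMS KD1, 5 to 5 higher and 7 to 8 lower in MBNL KD, and 4 to 6 higher and 5 to 6 lower in the direct comparison of the knockdowns. The RBPMS KD1 count of 3 lower was reached without D1 replicate 3. Without MBNL KD replicate 3, 5 members were higher and 8 lower in MBNL KD. Deviations of libraries with the same replicate number correlated at -0.018 to 0.017, so that the numbers did not pair the libraries. With the replicate number as a block, 0 member calls were lost and the counts were 16 higher and 13 lower in P, 1 and 5 in RBPMS KD1, 5 and 8 in MBNL KD, and 4 and 6 between the knockdowns. The D1 libraries of Epha10, Sema5b, Sema6b, Sema3g and Plxna4 held at most 43 counts, and with at least 10 counts in every library these 5 had no test in the comparisons where they were called, nor had Ephb4 in P and Epha8 in the knockdowns.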
